A study of Sus scrofa with 18 samples.

Results

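The collagen genes of the pig were followed in tumours and in normal tissue. The rule takes every gene of the count table whose symbol is COL, a number, A and a number, with COL17A1 left out. It uses no measured value, but the family was taken up with earlier results of these data known. This gave 42 of the 27339 genes, namely 11 fibrillar collagens, 6 basement membrane collagens, 10 fibril-associated collagens with interrupted helices (FACIT), 4 beaded filament collagens, 3 short-chain network collagens, 1 anchoring fibril collagen, 2 multiplexins, 3 transmembrane collagens and 2 others. Of these, 24 passed the filter on low counts and were tested. The remaining 18 are given by their counts. COL6A1 was not analysed here.

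The tumours came from a double knock-in (DIK) pig that carries elements of the doxycycline-driven Tet-on switch and of the phiC31 integrase. At 7 months of age 3 DIK founders and age-matched wild-type (WT) pigs received doxycycline, so the controls had the drug as well, and tissue was taken 8 months after induction. Tumours arose at the nose, mouth and scrotum of 1 founder, and all 9 DIK libraries come from that animal, with 3 for each of these labels. The 9 WT libraries are normal tissue with the same 3 labels. How many WT animals gave tissue is not stated in the sources used here, and the p-values below reflect only how these libraries vary, which may be technical.

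Collagens are the main structural proteins of the extracellular matrix, made as procollagen chains that wind into a rope-like helix. Types I and III, with smaller amounts of type V, form the fibrils of connective tissue and are mostly made by fibroblasts. Type IV forms the network of basement membranes, the sheets on which epithelia, vessels and muscle fibres rest, and type VII anchors the epidermal sheet to the dermis below. FACIT collagens sit on fibril surfaces, type VI forms beaded filaments around cells, and multiplexins bind to basement membranes. In solid tumours the fibrillar collagens of the stroma and the type IV network at the epithelial border are among the commonly described parts of the matrix.

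Levels are given in CPM, the reads of a gene scaled to one common library total, with library sizes adjusted by the TMM method. Library totals ran from 418665 counts (WT nose replicate 1) to 5041470 counts (WT nose replicate 3), and the DIK libraries held 2024959 to 4146150. The cell types differed between tumour and normal libraries at every label. Keratinocyte markers (7 of a list of 8 are in the table) summed to 50910 to 120710 CPM in DIK, against 507 to 1415 CPM in WT nose, 134 to 1369 CPM in WT mouth and 77.5 to 15777 CPM in WT scrotum. Skeletal muscle markers summed to 83739 to 122030 CPM in WT nose and 105580 to 252650 CPM in WT scrotum. In DIK they summed to 9.69 to 931 CPM at the nose, 3.16 to 5.59 CPM at the mouth and 10.6 to 57.5 CPM at the scrotum. ACTA1, one of these markers, was at 683, 4.58 and 887 CPM in DIK nose replicates 1, 2 and 3. Smooth muscle markers summed to 55729 to 102980 CPM in WT mouth, mostly from ACTA2. The 15 posterior HOX genes, which mark tissue from the rear of the body, summed to 42.2 to 70.8 CPM in WT mouth and to 3.36 to 6.52 CPM in WT scrotum. In the tumours they summed to 11.7 to 20.4 CPM in DIK mouth and 0.625 to 4.19 CPM in DIK scrotum. Both go against the mouth and scrotum labels, so site names below are the labels as deposited. Some libraries stood apart from their groups in marker or collagen levels. WT scrotum replicate 3 had the most COL1A2 of its group, at 13676 CPM against 5674 and 2021 CPM. WT scrotum replicate 2 held the 15777 CPM of keratinocyte markers, against 1280 and 77.5 CPM in the other WT scrotum libraries, and DIK nose replicate 2 had the lowest type I and III collagen levels of all libraries.

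Tumours carried fewer reads of COL1A1, COL1A2 and COL3A1, the fibril-forming collagens with the most reads, than normal tissue at all 3 labels. COL12A1 and COL18A1 were higher in the tumours at all 3 labels. At the nose label 4 of the 24 tested collagen genes were higher in DIK and 6 were lower, where the same edgeR test called 21.9% of all 12895 genes tested higher and 20.1% lower. At the mouth label 4 were higher and 15 were lower, against 22.7% and 24.3% of all genes. At the scrotum label 8 were higher and 7 were lower, against 19.4% and 24.0% of all genes. Among all genes called at the mouth label 48.3% were higher in DIK, and 36.1% when libraries were scaled by their size alone, while the collagen counts under that scaling were 3 higher and 15 lower. The median of all genes under that scaling was -0.29 at the mouth and -0.21 at the scrotum on the log2 scale. A gene was called at a Benjamini-Hochberg adjusted p under 0.05. The median log2 difference (DIK minus WT) over the 24 genes was -0.35 at the nose, -1.60 at the mouth and 0.20 at the scrotum, beside 0.03, -0.04 and -0.09 over all genes tested. With DIK nose replicate 2 left out the counts at the nose were 3 higher and 2 lower, and without WT nose replicate 2 they were 3 higher and 3 lower. In the fit without WT scrotum replicate 2 the counts at the scrotum were 9 higher and 9 lower.

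The direction at the 3 labels sorted the genes into groups. COL1A1, COL1A2, COL3A1, COL6A3 and COL14A1 were lower in DIK at every label, and COL12A1 and COL18A1 were higher at every label. COL4A2 and COL4A5 were higher at the nose and scrotum and lower at the mouth. COL7A1 and COL13A1 were called higher at the mouth and scrotum, and COL5A2 and COL6A2 lower there. COL21A1 was called lower at the nose and mouth. COL27A1 and COL4A1 were called, as higher, at the scrotum alone, and COL5A1, COL8A1, COL15A1, COL16A1 and COL24A1, as lower, at the mouth alone. The main edgeR fit, over all 18 libraries, called COL4A6, COL5A3 and COL23A1 at no label. Other tools or other edgeR fits called COL4A6 and COL23A1 at some, as given with these genes. A call at 1 label and none at another does not show that the labels differ, which the interactions below test. Fewer cells of a type and less RNA per cell cannot be told apart in these bulk libraries.

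**Figure D1:**
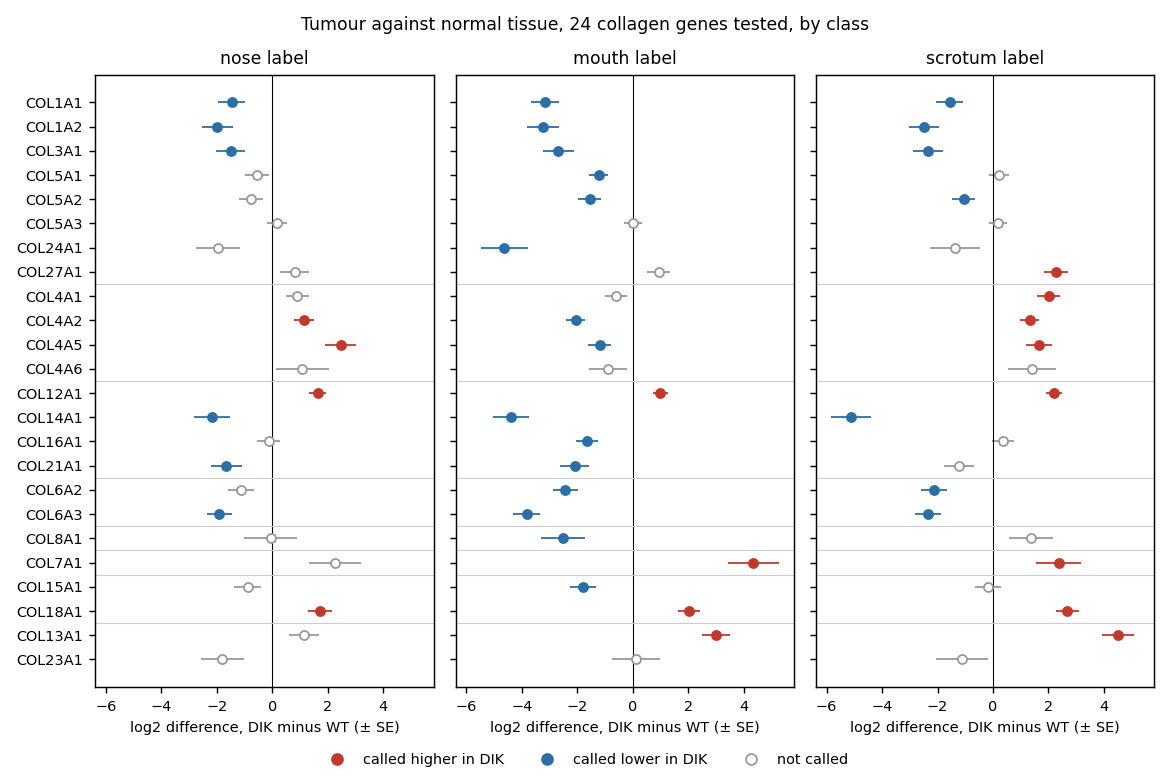
Log2 difference (DIK minus WT, horizontal axis, with its SE as bars) of the 24 tested collagen genes at the nose, mouth and scrotum labels, grouped by class with thin lines. Filled points passed an adjusted p of 0.05 in the edgeR test and open points did not. At the mouth label 15 points are called to the left of 0, and at the scrotum label 8 are called to the right and 7 to the left.

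The summed share of collagen reads mostly follows the genes with the most reads, and not the counts of called genes. COL1A1, COL1A2 and COL3A1 made 54.8 to 95.6% of the collagen counts of a library. The 42 genes took 0.203, 0.106 and 0.204% of all counts in DIK nose and 0.504, 0.545 and 0.420% in WT nose. In the mouth libraries they took 0.262, 0.294 and 0.339% in DIK and 1.90, 2.37 and 2.68% in WT. In the scrotum libraries they took 0.279, 0.367 and 0.341% in DIK and 0.966, 0.491 and 2.33% in WT. The DIK libraries lay below the WT libraries at each label, and the lowest WT scrotum library was replicate 2. Among WT groups the mouth libraries had the highest mean share, while the scrotum libraries ran from a share within the WT nose range to one within the WT mouth range. No p-value is given for these sums.

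The make-up of the collagen reads differed as well. COL1A1, COL1A2 and COL3A1 together made 54.8 to 83.7% of the collagen counts of a DIK library and 87.2 to 95.6% of those of a WT library. The 6 basement membrane genes made 6.03 to 22.4% in DIK and 0.584 to 4.88% in WT. No DIK library overlapped a WT library in either share. DIK nose replicate 2 was at the end of both DIK ranges, with 54.8% and 22.4%. Without it the DIK libraries had 69.0 to 83.7% and 6.03 to 14.3%.

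Fibroblast markers were mostly lower in DIK as well. All 10 genes of that list are in the table, 9 were tested, and 6, 9 and 7 of them were lower in DIK at the nose, mouth and scrotum, with none higher, where 20.1, 24.3 and 24.0% of all genes tested were lower. Their summed level was 60.7, 32.6 and 51.9 CPM in DIK nose, 33.5, 46.2 and 49.8 CPM in DIK mouth and 36.6, 38.3 and 36.3 CPM in DIK scrotum. In WT it was 324, 488 and 401 CPM at the nose, 761, 1055 and 1268 CPM at the mouth and 370, 249 and 1226 CPM at the scrotum. TCF21 was at 0 counts in 5 DIK and 8 WT libraries, and DPT at 0 in 2 DIK libraries. At the nose THY1, DPT and FAP were not called, at 0.19 ± 0.56, 0.28 ± 0.98 and -0.11 ± 0.47 (log2 ± SE). At the scrotum FAP and PDGFRB were not called. In WT nose PI16 and MFAP5, at means of 154 and 149 CPM, made most of the sum. MFAP5 was 234-fold lower in DIK at the nose, where COL1A1 was 2.76-fold lower. WT scrotum replicate 3, with 1226 CPM, also held the most collagen reads of its group, and WT scrotum replicate 2, with 249 CPM, the fewest. The part of these cells in the collagen differences was not tested.

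**Figure D2:**
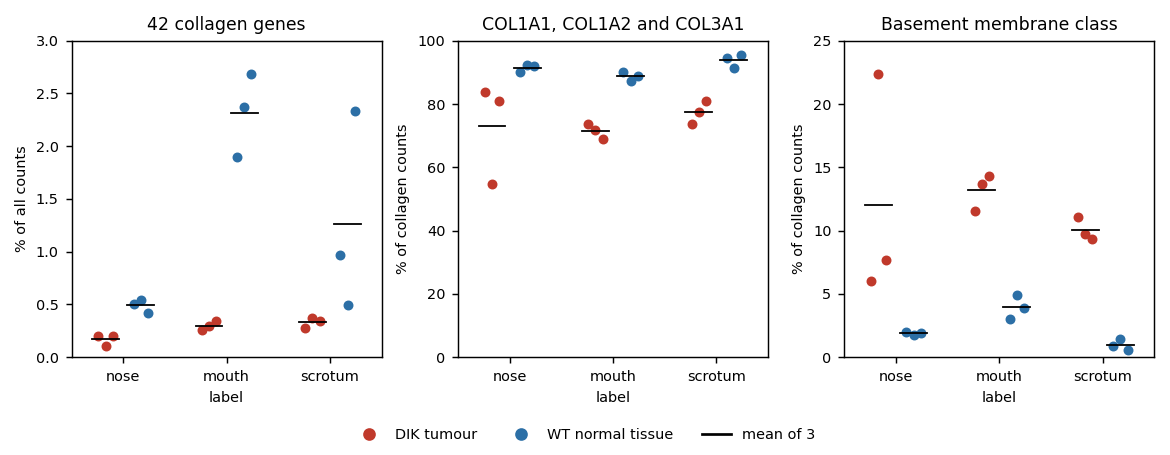
Percent of all counts taken by the 42 collagen genes (left), percent of collagen counts taken by COL1A1, COL1A2 and COL3A1 (middle) and by the 6 basement membrane genes (right), by label. Points are the 3 DIK tumour and 3 WT libraries of a label and black bars their means. In each panel no DIK library overlaps a WT library of the same label.

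Among the fibrillar collagens, the tumours had lower levels of the 3 major chains at all labels. COL1A1 and COL1A2 encode the chains of type I collagen, the main fibril of skin, tendon and bone. COL1A1 stood at 497, 205 and 482 CPM in DIK and 923, 1268 and 1082 CPM in WT at the nose label. The mouth libraries gave 453, 544 and 640.0 CPM in DIK and 3511, 4670.0 and 6519 CPM in WT. At the scrotum they gave 810.4, 1233 and 1166 CPM in DIK and 2870.5, 1128 and 5446 CPM in WT. The groups were apart at the nose and mouth, and at the scrotum WT replicate 2 lay within the DIK range. The log2 difference was -1.47 ± 0.48 (SE, edgeR adjusted p = 0.0197) at the nose, -3.17 ± 0.51 (SE, edgeR adjusted p = 7.82e-05) at the mouth and -1.56 ± 0.48 (SE, edgeR adjusted p = 0.014) at the scrotum, or 2.76-fold, 8.97-fold and 2.94-fold lower in DIK.

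COL1A2 followed the same order of groups. Its levels were 689, 235 and 659 CPM in DIK and 1902, 2349 and 2000.4 CPM in WT at the nose. At the mouth they were 769, 821 and 807 CPM in DIK and 5991, 7704 and 8951 CPM in WT. In the scrotum libraries they were 829, 1496 and 1488 CPM in DIK and 5674, 2021 and 13676 CPM in WT. No DIK library reached a WT library of its label, and DIK nose replicate 2 was the lowest of all. The differences were -1.98 ± 0.54 (SE, edgeR adjusted p = 0.00701), -3.24 ± 0.57 (SE, edgeR adjusted p = 0.000184) and -2.49 ± 0.55 (SE, edgeR adjusted p = 0.00143) in the order nose, mouth, scrotum.

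COL3A1 encodes type III collagen, the fibril of extensible tissues such as vessel walls and young dermis. It was read at 525, 205 and 444 CPM in DIK and 829, 1414 and 1083 CPM in WT at the nose, where the groups did not overlap. In the mouth libraries it was at 630.3, 654 and 772 CPM in DIK and 3119, 4858 and 5234 CPM in WT. In the scrotum libraries it was at 622, 820.1 and 837 CPM in DIK and 2789, 1098 and 7646 CPM in WT, with WT replicate 2 the closest to DIK. Its log2 differences were -1.50 ± 0.53 (SE, edgeR adjusted p = 0.0281), -2.68 ± 0.55 (SE, edgeR adjusted p = 0.000656) and -2.34 ± 0.54 (SE, edgeR adjusted p = 0.00192) at the nose, mouth and scrotum.

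Single libraries carried weight in the nose and scrotum values of these 3 genes. By the same edgeR test without DIK nose replicate 2, COL1A1 at the nose came to -1.15 (edgeR adjusted p = 0.0882) and COL3A1 to -1.19 (edgeR adjusted p = 0.115). Without WT nose replicate 2 they came to -1.33 (edgeR adjusted p = 0.0649) and -1.28 (edgeR adjusted p = 0.1). COL3A1 at the nose also missed the threshold without DIK nose replicate 3, at -1.59 (edgeR adjusted p = 0.0558), and without WT nose replicate 3, at -1.51 (edgeR adjusted p = 0.0604). With WT scrotum replicate 3 left out the scrotum differences were -0.90 (edgeR adjusted p = 0.136) for COL1A1, -1.60 (edgeR adjusted p = 0.0158) for COL1A2 and -1.36 (edgeR adjusted p = 0.0263) for COL3A1. COL1A1 at the scrotum was also not called without DIK scrotum replicate 1, at -1.39 (edgeR adjusted p = 0.0653). At the mouth all 3 genes were called whichever library was left out.

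Type V chains sit inside type I fibrils and set their width. Of the 3 tested, COL5A1 and COL5A2 were lower in DIK at the mouth and COL5A2 at the scrotum, COL5A3 was at 0.01 ± 0.32 (log2 ± SE) at the mouth, and no interaction called any of them. COL5A2 was at 41.4, 41.1 and 48.5 CPM in DIK and 70.5, 151 and 163 CPM in WT there, for a log2 difference of -1.55 ± 0.41 (SE, edgeR adjusted p = 0.00466). COL5A1 was at 5.70, 5.59 and 8.53 CPM in DIK and 11.4, 16.2 and 19.1 CPM in WT, with -1.23 ± 0.35 (SE, edgeR adjusted p = 0.00794). Neither gene's groups overlapped at the mouth. At the nose neither passed the test, with -0.77 ± 0.42 for COL5A2 and -0.56 ± 0.44 for COL5A1 (log2 ± SE). At the scrotum COL5A2 was -1.06 ± 0.41 (SE, edgeR adjusted p = 0.0428) while COL5A1 was 0.22 ± 0.37 and was not called, with a change of sign without WT scrotum replicate 2, to -0.16 (edgeR adjusted p = 0.73). The scrotum call of COL5A2 was lost in the edgeR test without any one of DIK replicates 1, 2 and 3 and WT replicates 1 and 3, with edgeR adjusted p of 0.12, 0.0771, 0.0965, 0.0573 and 0.455. In the fit without WT scrotum replicate 3 its difference was -0.38 (edgeR adjusted p = 0.455). With the replicate number as a block its adjusted p was 0.0673.

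COL5A3, the third type V chain, did not pass the test at any label, with log2 differences of 0.18 ± 0.36, 0.01 ± 0.32 and 0.18 ± 0.34. Its levels ran from 8.46 to 24.3 CPM in DIK and from 7.68 to 27.5 CPM in WT, and the sign of its difference at each label changed with 1 library or more left out. COL24A1 and COL27A1 are fibrillar collagens best known from developing skeleton and cartilage. COL24A1 was near the limit of detection in the mouth tumours, with 2 counts over the 3 DIK libraries and 80 over the 3 WT libraries, a ratio of 28.0 in favour of WT with an exact 95% counting interval of 7.50 to 235. It was called lower there (edgeR adjusted p = 0.000239) and not at the nose or scrotum. At the nose it passed the threshold without DIK replicate 1, at -3.06 (edgeR adjusted p = 0.0235), without WT replicate 3, at -2.54 (edgeR adjusted p = 0.028), and with the replicate block, at -2.13 (edgeR adjusted p = 0.0471). In all, the nose difference stayed uncalled in 9 of the 15 alternatives that were run and was called lower in the others.

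COL27A1 went the other way. It was at 24.0, 24.7 and 8.75 CPM in DIK and 4.20, 3.26 and 4.77 CPM in WT at the scrotum, with all DIK above all WT libraries and a log2 difference of 2.27 ± 0.44 (SE, edgeR adjusted p = 0.000423). At the nose it was at 4.13, 5.38 and 6.01 CPM in DIK and 3.84, 4.02 and 1.92 CPM in WT, where DIK was again above WT, and at the mouth at 6.01, 10.2 and 17.6 CPM in DIK and 5.31, 7.84 and 4.46 CPM in WT, where the groups overlapped. Those differences were 0.80 ± 0.52 and 0.93 ± 0.41 (log2 ± SE), and the fit called neither. Without DIK mouth replicate 1 the mouth value was 1.24 (edgeR adjusted p = 0.0259).

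The beaded filament class was lower in DIK at every label for COL6A3 and at the mouth and scrotum for COL6A2. Type VI collagen links cells to the surrounding fibrils and is abundant around muscle fibres. COL6A3 was at 43.0, 14.5 and 35.2 CPM in DIK and 121, 129 and 99.4 CPM in WT at the nose. The mouth gave 56.6, 57.8 and 67.7 CPM in DIK and 551, 948 and 1079 CPM in WT. The scrotum gave 51.4, 60.4 and 60.6 CPM in DIK and 262, 107 and 511 CPM in WT. The groups were apart at all 3 labels, with the widest gap at the mouth. The log2 differences were -1.91 ± 0.46 (SE, edgeR adjusted p = 0.00295), -3.82 ± 0.49 (SE, edgeR adjusted p = 8.85e-06) and -2.35 ± 0.46 (SE, edgeR adjusted p = 0.000519). With WT scrotum replicate 3 left out the last became -1.68 (edgeR adjusted p = 0.00436).

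COL6A2 was at 9.23, 5.12 and 7.37 CPM in DIK and 5.76, 20.8 and 16.7 CPM in WT at the nose, where WT replicate 1 fell among the DIK libraries. At the mouth it was at 6.64, 8.02 and 14.9 CPM in DIK and 33.8, 48.5 and 78.2 CPM in WT, and at the scrotum at 6.71, 12.9 and 7.50 CPM in DIK and 45.3, 20.6 and 53.7 CPM in WT, with no overlap at either. Its differences were -2.43 ± 0.44 (SE, edgeR adjusted p = 0.000249) at the mouth and -2.13 ± 0.45 (SE, edgeR adjusted p = 0.00102) at the scrotum. The nose value of -1.13 ± 0.46 had an edgeR adjusted p of 0.0561, and without WT nose replicate 1, the shallowest library, it was -1.35 (edgeR adjusted p = 0.0297). It stayed uncalled in 10 of the 17 alternatives that were run and was called lower in the others. COL6A5 and COL6A6 had too few counts to test.

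FACIT collagens split, with COL12A1 higher and COL14A1 lower in DIK at all 3 labels. Types XII and XIV are close relatives that both bind the surface of type I fibrils. COL12A1 was at 33.3, 59.0 and 33.0 CPM in DIK and 15.4, 11.7 and 14.1 CPM in WT at the nose. The mouth libraries held 81.9, 63.2 and 110.3 CPM in DIK and 45.1, 41.1 and 42.5 CPM in WT. The scrotum libraries held 61.8, 66.9 and 51.3 CPM in DIK and 10.1, 16.1 and 13.04 CPM in WT. All DIK libraries lay above all WT libraries of their label. The log2 differences were 1.63 ± 0.30 (SE, edgeR adjusted p = 0.000314), 0.99 ± 0.27 (SE, edgeR adjusted p = 0.00598) and 2.18 ± 0.29 (SE, edgeR adjusted p = 9.44e-06), so that DIK was 3.10-fold, 1.98-fold and 4.55-fold higher. Each of these calls held whichever library was left out. The mouth value was the smallest, and the WT mouth libraries had the highest WT levels. Scaled by library size alone the mouth call was lost, at 0.74 (edgeR adjusted p = 0.0513).

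COL14A1 was at 4.61, 1.08 and 4.64 CPM in DIK and 3.84, 20.8 and 17.5 CPM in WT at the nose, where WT replicate 1 rested on 2 counts and lay within the DIK range. At the mouth it was at 2.53, 2.67 and 6.13 CPM in DIK and 67.9, 88.0 and 85.5 CPM in WT. At the scrotum it was at 1.96, 1.07 and 3.75 CPM in DIK and 50.8, 27.3 and 140.2 CPM in WT. The mouth and scrotum groups were far apart, by 21.0-fold and 34.5-fold. The log2 differences were -2.19 ± 0.65 (SE, edgeR adjusted p = 0.0125), -4.39 ± 0.65 (SE, edgeR adjusted p = 5.83e-05) and -5.11 ± 0.72 (SE, edgeR adjusted p = 3.56e-05). In the fit without DIK nose replicate 2 the nose value came to -1.76 (edgeR adjusted p = 0.053), and without WT nose replicate 2 to -1.90 (edgeR adjusted p = 0.0574). Without WT scrotum replicate 3 the scrotum value came to -4.20 (edgeR adjusted p = 3.02e-05).

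COL16A1, another fibril-associated collagen, was lower in DIK at the mouth, at 10.1, 26.0 and 23.2 CPM in DIK and 51.3, 68.3 and 66.6 CPM in WT, and the log2 difference was -1.64 ± 0.39 (SE, edgeR adjusted p = 0.00219). The nose libraries held 14.3, 17.5 and 21.6 CPM in DIK and 28.8, 20.8 and 13.2 CPM in WT and the scrotum libraries 26.8, 39.3 and 14.4 CPM in DIK and 13.8, 18.5 and 31.1 CPM in WT, with overlap at both and no call. The mouth difference was not shown to differ from that at the nose, at -1.50 ± 0.57 (log2 ± SE, edgeR adjusted p = 0.109), while that between scrotum and mouth was called, as given below. COL21A1, a FACIT collagen described in vessel walls, was called lower at the nose, at -1.66 ± 0.56 (SE, edgeR adjusted p = 0.0226), and at the mouth, at -2.09 ± 0.52 (SE, edgeR adjusted p = 0.00284). Its levels ran from 0.808 to 4.19 CPM in DIK and from 3.87 to 13.6 CPM in WT. The nose call was lost in the edgeR test without DIK replicate 2, at -1.26 (edgeR adjusted p = 0.0964), DIK replicate 3, at -1.69 (edgeR adjusted p = 0.0502), WT replicate 1, at -1.49 (edgeR adjusted p = 0.0531), or WT replicate 3, at -1.68 (edgeR adjusted p = 0.0684). At the scrotum COL21A1 was -1.24 ± 0.54 (log2 ± SE) and not called, and it passed without WT scrotum replicate 2, at -1.57 (edgeR adjusted p = 0.0183).

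The basement membrane collagens gave different directions at different labels. COL4A1 and COL4A2 encode the chains of the type IV network that is present in nearly all basement membranes, including those of vessels, muscle fibres and epidermis. COL4A2 was at 23.1, 51.2 and 35.5 CPM in DIK and 15.4, 15.3 and 18.4 CPM in WT at the nose. The mouth gave 48.7, 70.4 and 78.1 CPM in DIK and 152, 350.3 and 323 CPM in WT. The scrotum gave 62.6, 75.8 and 63.8 CPM in DIK and 27.3, 18.1 and 35.6 CPM in WT. DIK was above WT at the nose and scrotum and below WT at the mouth, with no overlap at any label. The log2 differences were 1.14 ± 0.37 (SE, edgeR adjusted p = 0.0172), -2.06 ± 0.35 (SE, edgeR adjusted p = 0.000131) and 1.32 ± 0.35 (SE, edgeR adjusted p = 0.0053). The nose call was lost without DIK nose replicate 2, at 0.83 (edgeR adjusted p = 0.102), and without WT nose replicate 2, at 1.09 (edgeR adjusted p = 0.0626).

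COL4A1 was at 89.3, 187 and 106 CPM in DIK and 63.3, 76.3 and 64.1 CPM in WT at the nose. At the mouth it was at 222, 297 and 359 CPM in DIK and 247, 558 and 534 CPM in WT, where DIK replicates 2 and 3 lay above WT replicate 1. At the scrotum it was at 261, 349 and 313 CPM in DIK and 66.7, 36.9 and 125 CPM in WT, with DIK above WT. Its scrotum difference was 2.01 ± 0.42 (SE, edgeR adjusted p = 0.000824), a 4.03-fold higher level in DIK. The nose difference was 0.90 ± 0.41 and the mouth difference -0.61 ± 0.40 (log2 ± SE), with edgeR adjusted p of 0.0857 and 0.229.

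COL4A5 and COL4A6 encode the type IV chains found in the basement membranes of skin, smooth muscle and kidney. COL4A5 was at 9.71, 22.9 and 6.55 CPM in DIK and 1.92, 1.83 and 2.78 CPM in WT at the nose, with DIK above WT. At the mouth it was at 16.5, 15.5 and 19.5 CPM in DIK and 20.8, 49.2 and 47.5 CPM in WT, with DIK below WT. At the scrotum it was at 16.5, 16.4 and 21.3 CPM in DIK and 4.62, 9.17 and 2.76 CPM in WT, with DIK above WT and WT replicate 2 the closest to it. The differences were 2.47 ± 0.56 (SE, edgeR adjusted p = 0.00178), -1.19 ± 0.42 (SE, edgeR adjusted p = 0.0266) and 1.66 ± 0.46 (SE, edgeR adjusted p = 0.00761). With DIK nose replicate 2 left out the nose value was 1.80 (edgeR adjusted p = 0.0126). In the fit without WT scrotum replicate 2 the scrotum value was 2.32 (edgeR adjusted p = 0.000929). The mouth call was lost in the edgeR test without any one of DIK replicates 1, 2 and 3 and WT replicates 2 and 3, with edgeR adjusted p of 0.0785, 0.0848, 0.0521, 0.102 and 0.0884.

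COL4A6 was low throughout, at 1.21 to 5.0 CPM in DIK and 0 to 6.82 CPM in WT, and the main edgeR fit called it at no label. limma-voom with quality weights called it lower at the mouth, at -1.005 (limma adjusted p = 0.0342), and higher at the scrotum, at 3.48 (limma adjusted p = 0.00567). At the scrotum 2 of the 3 WT libraries had 0 counts, and replicate 2, the one with the most keratinocyte marker reads, had 2.65 CPM. The difference there was 1.40 ± 0.87 (log2 ± SE), and without that replicate the edgeR adjusted p was 0.00144, against a WT group at 0 counts. The epidermal markers were high in all DIK libraries and the endothelial markers were lower in DIK for 2, 6 and 6 of 8 tested genes at the nose, mouth and scrotum, with none higher, beside 20.1, 24.3 and 24.0% of all genes. Endothelial markers summed to 70.8 to 156 CPM in DIK, 240.4 to 282 CPM in WT nose, 379 to 523 CPM in WT mouth and 124.5 to 769 CPM in WT scrotum. Their part in the type IV values was not tested.

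COL7A1, the collagen of the anchoring fibrils under the epidermis, was higher in DIK at the mouth and scrotum. It was at 21.6, 35.0 and 37.4 CPM in DIK and 17.3, 4.02 and 4.92 CPM in WT at the nose. The mouth libraries held 39.2, 50.8 and 68.2 CPM in DIK and 5.47, 1.05 and 0.787 CPM in WT. The scrotum libraries held 67.3, 82.6 and 71.9 CPM in DIK and 6.71, 33.6 and 1.25 CPM in WT. All DIK libraries lay above the WT libraries of their label, and the WT libraries with the most COL7A1 in each group were also those with the most keratinocyte marker reads. The log2 differences were 2.26 ± 0.94 (SE, edgeR adjusted p = 0.0664), 4.35 ± 0.92 (SE, edgeR adjusted p = 0.0016) and 2.37 ± 0.81 (SE, edgeR adjusted p = 0.0301). Without WT mouth replicate 1 the mouth value was 5.72 (edgeR adjusted p = 0.00099), and without WT scrotum replicate 2 the scrotum value was 4.35 (edgeR adjusted p = 0.000183). With WT nose replicate 1 left out the nose value was 2.79 (edgeR adjusted p = 0.0434). The nose difference stayed uncalled in 12 of the 17 alternatives that were run and was called higher in the others. The scrotum call was lost in the edgeR test without DIK replicate 1, 2 or 3 or WT replicate 1, with edgeR adjusted p of 0.0549, 0.0716, 0.0545 and 0.104, and with scaling by library size alone, at 2.11 (edgeR adjusted p = 0.0816).

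The multiplexins, which attach to the outer face of basement membranes, moved apart. COL18A1, the source of the fragment endostatin, was at 21.1, 62.5 and 31.9 CPM in DIK and 17.3, 7.67 and 12.4 CPM in WT at the nose. The mouth gave 50.3, 79.7 and 103 CPM in DIK and 18.3, 17.1 and 21.5 CPM in WT. The scrotum gave 100.04, 131 and 68.1 CPM in DIK and 9.65, 22.0 and 14.5 CPM in WT. DIK was above WT at each label without overlap, by 3.32-fold, 4.10-fold and 6.40-fold. Its log2 differences were 1.73 ± 0.44 (SE, edgeR adjusted p = 0.00386), 2.04 ± 0.40 (SE, edgeR adjusted p = 0.000492) and 2.68 ± 0.42 (SE, edgeR adjusted p = 5.15e-05), and all were called whichever library was left out. COL15A1, common around vessels and muscle fibres, was lower at the mouth, at 32.9, 22.6 and 21.6 CPM in DIK and 39.8, 124 and 104 CPM in WT, a difference of -1.80 ± 0.46 (SE, edgeR adjusted p = 0.00405). It was not called at the nose or scrotum, with -0.90 ± 0.49 and -0.18 ± 0.46 (log2 ± SE). At the nose it stayed uncalled in 14 of the 17 alternatives that were run and was called lower in the others. The scrotum value changed sign without WT scrotum replicate 3, to 0.49 (edgeR adjusted p = 0.42) in the edgeR test.

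The transmembrane collagens are short collagens held in the cell membrane. COL13A1 was higher in DIK at the mouth and scrotum, at 8.86, 13.8 and 16.3 CPM in DIK and 2.09, 0.871 and 1.84 CPM in WT at the mouth. The scrotum libraries held 25.4, 25.7 and 11.3 CPM in DIK and 1.26, 1.02 and 0.502 CPM in WT, and the nose libraries 3.40, 9.42 and 4.10 CPM in DIK and 0, 1.83 and 3.63 CPM in WT, where WT replicate 3 lay within the DIK range. The differences were 3.01 ± 0.50 (SE, edgeR adjusted p = 0.00011) and 4.52 ± 0.57 (SE, edgeR adjusted p = 5.96e-06), with 1.14 ± 0.55 at the nose and no call there. COL23A1 was at 0.633 to 2.18 CPM in DIK, other than a 0 in 1 DIK scrotum library, and at 0.262 to 9.60 CPM in WT. In the main edgeR fit it was not called at any label. At the nose, where the DIK libraries lay below the WT libraries, edgeR gave -1.80 ± 0.78 (log2 ± SE, edgeR adjusted p = 0.0718). The same difference was called lower by DESeq2, at -1.95 (DESeq2 adjusted p = 0.043), by limma-voom with quality weights, at -1.50 (limma adjusted p = 0.0342), and by edgeR on only the groups compared, at -1.78 (edgeR adjusted p = 0.00747). Its scrotum value of -1.13 ± 0.93 changed sign without WT scrotum replicate 2, to 0.27 (edgeR adjusted p = 0.86).

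COL8A1, a short-chain collagen of vessel walls and of the membrane under the corneal endothelium, was lower at the mouth, at 0.949, 0.486 and 1.33 CPM in DIK and 2.41, 6.45 and 7.34 CPM in WT. The difference was -2.50 ± 0.79 (SE, edgeR adjusted p = 0.015), and without DIK mouth replicate 2 it was -2.17 (edgeR adjusted p = 0.0688). At the scrotum it was at 5.31, 3.22 and 3.13 CPM in DIK and 2.098, 0.204 and 2.51 CPM in WT and at the nose at 1.70, 3.5 and 0.819 CPM in DIK and 7.68, 2.56 and 0.427 CPM in WT. The scrotum libraries of DIK lay above those of WT without a call (edgeR adjusted p = 0.166), and the nose libraries overlapped.

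**Figure D3:**
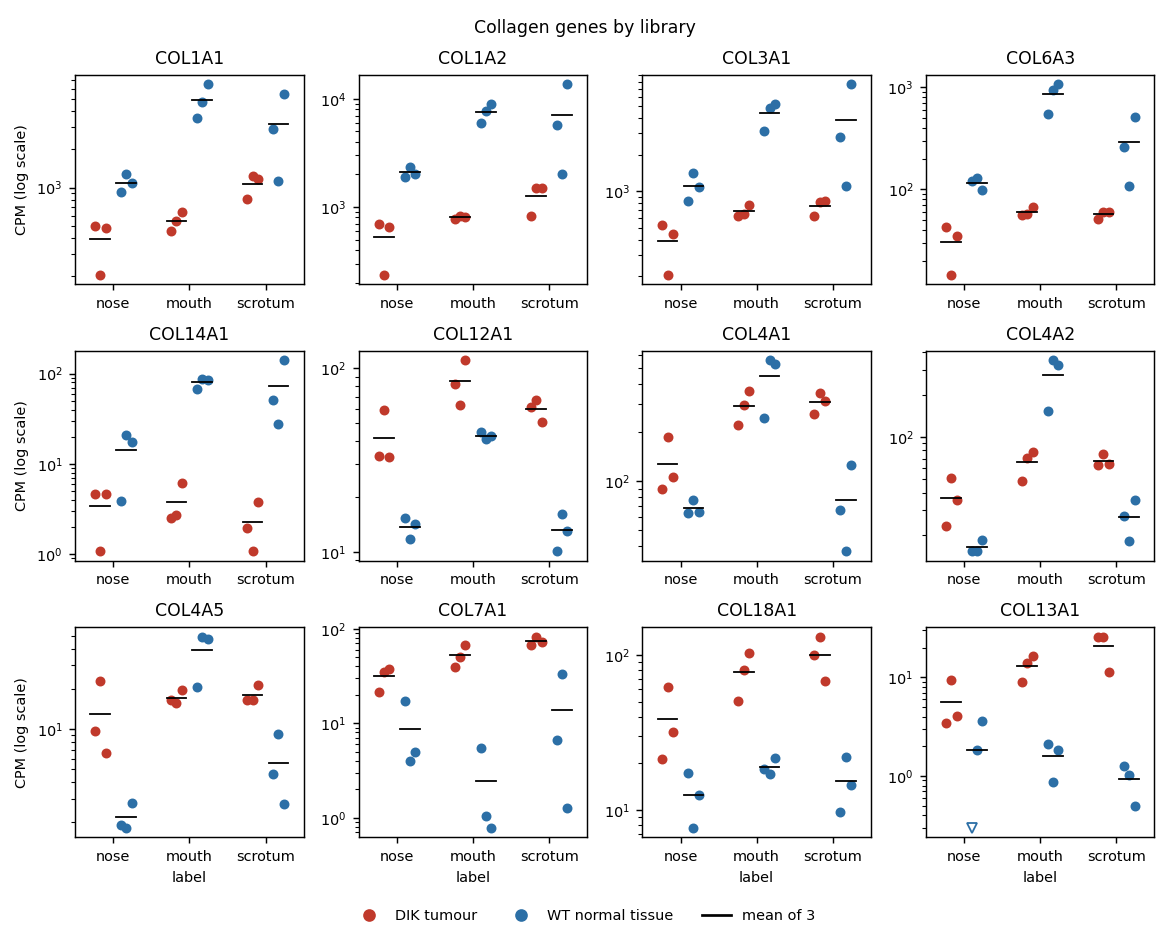
Level of 12 collagen genes in each library on a log scale of CPM, by label. Filled points are single libraries, black bars the means of 3, and the open triangle marks a library at 0 counts (COL13A1, WT nose replicate 1), drawn at 0.3 CPM. COL1A1, COL1A2, COL3A1, COL6A3 and COL14A1 have lower DIK means at all 3 labels, COL12A1 and COL18A1 have DIK above WT throughout, and COL4A2 and COL4A5 have DIK below WT at the mouth only.

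The 18 collagen genes below the filter held 80 counts over the 9 DIK libraries and 316 over the 9 WT libraries, of 82251 and 490514 collagen counts in all. They were COL2A1, COL11A1 and COL11A2 (cartilage-type fibrillar), COL4A3 and COL4A4 (kidney-type basement membrane), COL9A1, COL9A2, COL9A3, COL19A1, COL20A1 and COL22A1 (FACIT), COL6A5 and COL6A6, COL8A2 and COL10A1, COL25A1, COL26A1 and COL28A1. COL10A1, the collagen of hypertrophic cartilage, had 3 counts in DIK and 15 in WT. COL6A6 had 1 count in DIK and 34 in WT. COL25A1 had 0 in DIK and 21 in WT, and COL28A1 had 17 and 53. COL8A2 had 19 in DIK and 24 in WT, and COL26A1, with 13 and 5, had more counts in DIK. COL11A2, COL20A1, COL22A1, COL25A1, COL9A3 and COL2A1 had no count in any DIK library, and COL2A1, the main collagen of cartilage, had 2 counts in 1 WT library. A value of 0 allows up to 3 counts, which is 0.483 to 5.76 CPM in a single library.

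Whether the tumour-to-normal difference of a gene depended on the label was tested as an interaction, the difference between 2 of the DIK minus WT differences. Each pair of interactions shares the 6 libraries of 1 label, so the 3 sets of values are not independent. Between mouth and nose 2 of 24 collagen genes differed, where 8.60% of all genes did. Between scrotum and nose 1 of 24 differed, against 7.65%. Between scrotum and mouth 6 of 24 differed, against 13.1%. COL4A2 had a mouth difference that was lower than the nose difference by 3.21 on the log2 scale and a scrotum difference that was higher than the mouth difference by 3.38 ± 0.50 (SE, edgeR adjusted p = 0.000211). For COL4A5 the scrotum difference was higher than that at the mouth by 2.84 ± 0.63 (SE, edgeR adjusted p = 0.0054), and for COL4A1 by 2.62 ± 0.58 (SE, edgeR adjusted p = 0.00564). For COL16A1 and COL8A1 the scrotum difference was also higher than that at the mouth, by 1.99 ± 0.55 (SE, edgeR adjusted p = 0.0217) and 3.89 ± 1.12 (SE, edgeR adjusted p = 0.0272). For COL12A1 the same contrast gave 1.20 ± 0.39 (SE, edgeR adjusted p = 0.0482). COL13A1 was the gene called between scrotum and nose, at 3.38 ± 0.82 (SE, edgeR adjusted p = 0.0174). Leaving out single libraries changed several of these. When WT nose replicate 3 was left out the COL13A1 value was 2.58 (edgeR adjusted p = 0.17). The COL12A1 call was lost without any 1 of 10 of the 12 libraries, all but DIK mouth replicate 3 and WT scrotum replicate 2, with edgeR adjusted p of 0.0549 to 0.136, and with the replicate block, at 1.20 (edgeR adjusted p = 0.058). The COL16A1 call was lost without DIK mouth replicate 1, DIK scrotum replicate 2 or WT scrotum replicate 1, with edgeR adjusted p of 0.0607, 0.0861 and 0.0537. The COL8A1 call was lost without DIK mouth replicate 1 or 2, DIK scrotum replicate 1 or WT mouth replicate 2 or 3, with edgeR adjusted p of 0.0597, 0.0781, 0.0844, 0.0600 and 0.0616, and its value moved to 3.26 (edgeR adjusted p = 0.0382) and 4.57 (edgeR adjusted p = 0.0166) without WT scrotum replicate 2 and 3. COL4A5 stayed called, at -2.98 (edgeR adjusted p = 0.00765) between mouth and nose without DIK nose replicate 2 and 3.49 (edgeR adjusted p = 0.000675) between scrotum and mouth without WT scrotum replicate 2.

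Both sides of a difference can carry the label effect, so labels were also compared within WT and within DIK. Within WT, 16 of 24 collagen genes differed between mouth and nose, against 19.8% of all genes, with 15 higher at the mouth. COL4A2 was 16.6-fold higher in WT mouth than in WT nose, COL4A5 16.6-fold, COL6A3 7.40-fold and COL4A1 6.55-fold. COL23A1 was the gene lower there, at -2.46 ± 0.79 (SE, edgeR adjusted p = 0.0339). Leaving out WT mouth replicate 1 took that value to -3.48 (edgeR adjusted p = 0.0113), and leaving out WT nose replicate 1 or 2 or WT mouth replicate 2 or 3 ended the call, with edgeR adjusted p of 0.0813 to 0.133. Between WT scrotum and WT mouth 8 of 24 differed, against 23.0% of all genes, all lower at the scrotum, and they included the 4 tested type IV chains with COL6A3, COL12A1, COL16A1 and COL24A1. The calls of COL4A6, COL6A3 and COL24A1 were lost with some single WT mouth or WT scrotum libraries left out, WT mouth replicate 3 among them, at -2.11 (edgeR adjusted p = 0.0948), -1.35 (edgeR adjusted p = 0.0609) and -1.69 (edgeR adjusted p = 0.108). Between WT scrotum and WT nose 2 of 24 differed, COL5A2 and COL14A1, against 6.05% of all genes. Without WT scrotum replicate 2 that count was 11, and without WT scrotum replicate 3 or any 1 of the WT nose libraries it was 0. The share of all genes called in these refits was not worked out, so the changes are not read as results about collagens.

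The same label pairs were compared within DIK. Between scrotum and nose 5 of 24 differed, where 5.84% of all genes did, all higher at the scrotum. COL27A1 was 3.78-fold higher in DIK scrotum than in DIK nose, COL13A1 3.75-fold, COL15A1 3.43-fold, COL5A1 3.26-fold and COL18A1 2.60-fold. Without DIK nose replicate 1 or DIK scrotum replicate 2 none of the 24 was called, and without DIK nose replicate 3 or DIK scrotum replicate 1 the count was 1. Between mouth and nose edgeR called 0 of 24, against 1.54% of all genes, with 11 at an unadjusted p under 0.05, 1 called by DESeq2 and 9 by limma-voom. Between scrotum and mouth edgeR, DESeq2 and limma-voom each called 0 of 24, against 2.88% of all genes by edgeR, with 1 at an unadjusted p under 0.05. No share of all genes was worked out for the within-DIK counts at an unadjusted p, by DESeq2, by limma-voom or with a library left out. Those counts are therefore not read as results about collagens. For COL4A2 the DIK groups stood at 23.1, 51.2 and 35.5 CPM at the nose, 48.7, 70.4 and 78.1 CPM at the mouth and 62.6, 75.8 and 63.8 CPM at the scrotum. The WT libraries of the same gene stood at 15.3 to 18.4 CPM at the nose, 152 to 350.3 CPM at the mouth and 18.1 to 35.6 CPM at the scrotum. For a single gene, the test of whether labels differ more in WT than in DIK is the interaction given above, and the counts within WT and within DIK were not compared by a test. The smooth muscle markers, 8 of 8 lower in DIK at the mouth where 24.3% of all genes were lower, summed to 3248 to 4171 CPM in DIK mouth. They summed to 20843 to 31625 CPM in WT nose, beside the 55729 to 102980 CPM of WT mouth. ACTA2 made most of these sums, at means of 3580, 25739 and 74799 CPM in DIK mouth, WT nose and WT mouth. MYH11 and CNN1 were 23.0-fold and 48.0-fold higher in WT mouth than in WT nose, while ACTA2 and SYNPO2 were not called. The part of smooth muscle in the mouth values was not tested.

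Ratios between chains of one collagen type describe the balance within a library. COL4A1 and COL4A2 are next to each other in the RefSeq annotation of Sscrofa11.1, and their protein chains assemble together. The ratio of COL4A1 to COL4A2 counts was 1.63, 1.59 and 1.65 in WT mouth and 2.45, 2.03 and 3.51 in WT scrotum. In WT nose it was 4.13, 4.98 and 3.49. The DIK libraries had 3.87, 3.66 and 2.98 at the nose, 4.56, 4.21 and 4.60 at the mouth and 4.17, 4.60 and 4.91 at the scrotum. WT mouth was thus the group with the lowest ratio, and DIK mouth and DIK scrotum lay above WT mouth and WT scrotum. Ratios of counts are not corrected for gene length and are compared between libraries only.

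COL1A1 to COL1A2 ran from 0.590 to 0.977 in DIK and from 0.398 to 0.728 in WT. The DIK and WT ranges were apart at the nose and scrotum and overlapped at the mouth, where DIK had 0.590, 0.663 and 0.793 and WT had 0.586, 0.606 and 0.728. COL12A1 to COL14A1 was 7.12 to 62.3 in DIK and 0.0930 to 4 in WT. The highest WT value, 4 in WT nose replicate 1, rested on 2 counts of COL14A1. These ratios carry no test.

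**Figure D4:**
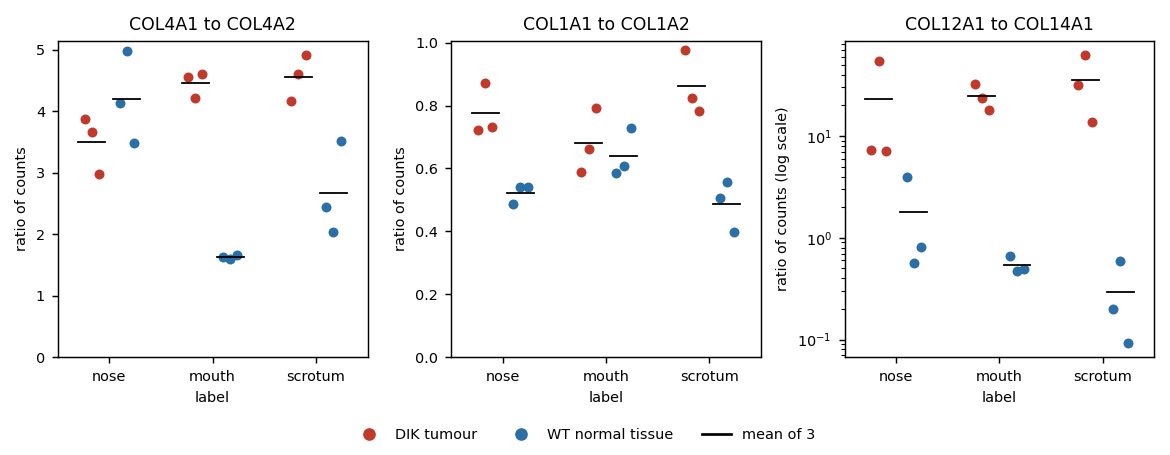
Ratio of counts of COL4A1 to COL4A2, of COL1A1 to COL1A2 (linear axes) and of COL12A1 to COL14A1 (log axis) in each library, by label. Points are libraries and black bars the means of 3. WT mouth has the lowest COL4A1 to COL4A2 ratios, 1.59 to 1.65, and the COL12A1 to COL14A1 ratio is at least 7.12 in all DIK libraries and at most 4 in WT.

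The genes that make and handle collagen were read alongside. Enzymes and chaperones that modify and fold procollagen in the secretory pathway gave 16 tested genes of 17. None was higher and 2 were lower in DIK at the nose, none higher and 6 lower at the mouth, and 5 higher with none lower at the scrotum, where P4HB, PLOD1, PLOD2, P3H2 and PPIB were those called. Of all genes tested, edgeR called 21.9% higher and 20.1% lower at the nose, 22.7% and 24.3% at the mouth and 19.4% and 24.0% at the scrotum, and the counts of this list and of the lists that follow stand beside those shares. PPIB, a proline isomerase of the folding machinery, was at 54.2, 59.3 and 73.1 CPM in DIK and 18.5, 18.7 and 24.6 CPM in WT at the scrotum. Its difference there was 1.59 ± 0.24 (SE, edgeR adjusted p = 3.73e-05), while at the nose it was -0.80 ± 0.23 (SE, edgeR adjusted p = 0.0104). The nose call was lost without WT nose replicate 2, at -0.58 (edgeR adjusted p = 0.0844). FKBP10, another folding factor for type I collagen, was lower at the mouth, at -2.19 ± 0.47 (SE, edgeR adjusted p = 0.00113). P3H1, a prolyl hydroxylase, was lower at the nose and mouth, at -1.33 ± 0.35 and -1.42 ± 0.32 (edgeR adjusted p = 0.00491 and 0.00149). With DIK mouth replicate 1 removed the count of lower genes at the mouth was 3, and without DIK scrotum replicate 3 or WT scrotum replicate 2 the count of lower genes at the scrotum was 1.

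Proteinases and helpers that trim the procollagen ends gave 6 tested genes of 8, with 0, 0 and 2 higher and 1, 4 and 3 lower at the nose, mouth and scrotum. PCOLCE2, an enhancer of this trimming, was at 3.16, 2.42 and 0.819 CPM in DIK and 15.4, 16.8 and 15.4 CPM in WT at the nose and was lower at every label, with -2.86 ± 0.51 (SE, edgeR adjusted p = 0.000242), -2.24 ± 0.46 (SE, edgeR adjusted p = 0.000709) and -3.83 ± 0.51 (SE, edgeR adjusted p = 1.03e-05). Without WT scrotum replicate 3 its scrotum value was -3.06 (edgeR adjusted p = 2.47e-05). TLL1 and TLL2, tolloid-like proteinases, had few counts. TLL2 had 3 counts in DIK and 48 in WT at the mouth, a ratio of 11.2 in favour of WT with an exact 95% counting interval of 3.61 to 56.2. At the scrotum it had 1 and 70, and TLL1 had 2 and 71. Leaving out DIK mouth replicate 1 or WT mouth replicate 2 took the count of lower genes at the mouth to 2, and leaving out DIK nose replicate 3 or WT nose replicate 1 took that at the nose to 2. TLL1 was called lower at the mouth (edgeR adjusted p = 0.0334), and not without any 1 of the mouth libraries other than WT replicate 1, with edgeR adjusted p of 0.0621 to 0.123.

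Lysyl oxidases crosslink collagen and elastin, and 4 of 5 were tested. LOX was lower at the mouth and scrotum, at 4.11, 1.94 and 3.998 CPM in DIK and 53.9, 83.5 and 113 CPM in WT at the mouth. Its differences were -4.64 ± 0.52 (SE, edgeR adjusted p = 2.49e-06) and -2.98 ± 0.50 (SE, edgeR adjusted p = 0.000114), and the latter was -2.24 (edgeR adjusted p = 0.000549) without WT scrotum replicate 3. LOXL1 was lower at all 3 labels, with -1.13 ± 0.44 (SE, edgeR adjusted p = 0.0437), -2.30 ± 0.39 (SE, edgeR adjusted p = 0.000114) and -2.23 ± 0.46 (SE, edgeR adjusted p = 0.000801). Its nose call was lost without any 1 of the nose libraries other than WT replicate 3, with edgeR adjusted p of 0.0766 to 0.154, and with the replicate block, at -1.12 (edgeR adjusted p = 0.0521). LOXL2 was higher at the scrotum, at 41.9, 75.1 and 36.3 CPM in DIK and 5.87, 2.24 and 13.3 CPM in WT, a difference of 2.84 ± 0.53 (SE, edgeR adjusted p = 0.00036), or 3.76 (edgeR adjusted p = 5.32e-05) without WT scrotum replicate 3. In all 0, 0 and 1 of the 4 genes were higher and 2, 3 and 3 lower at the nose, mouth and scrotum. The nose count fell to 0 without DIK nose replicate 2 or 3 or WT nose replicate 2, and to 1 without DIK nose replicate 1 or WT nose replicate 1.

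Small leucine-rich proteoglycans coat fibrils and limit their width. All 8 were tested, with 1, 0 and 0 higher and 2, 4 and 5 lower. ASPN was the higher one at the nose, at 2.42 ± 0.50 (SE, edgeR adjusted p = 0.000926). At the scrotum ASPN was lower, at -1.19 ± 0.43 (SE, edgeR adjusted p = 0.0309). LUM, BGN and FMOD were not called at the nose or scrotum, and LUM was at -0.02 ± 0.59 (log2 ± SE) at the nose. DCN (decorin) was at 232, 88.6 and 230.4 CPM in DIK and 1127, 1739 and 1628 CPM in WT at the nose, 135, 145 and 116 CPM in DIK and 2773, 3507 and 4014 CPM in WT at the mouth and 49.7, 36.1 and 86.9 CPM in DIK and 2069, 1518 and 4279 CPM in WT at the scrotum. The groups were apart at each label, by 8.16-fold, 26.0-fold and 45.7-fold. Its differences were -3.03 ± 0.48 (SE, edgeR adjusted p = 7.96e-05), -4.70 ± 0.52 (SE, edgeR adjusted p = 1.81e-06) and -5.51 ± 0.54 (SE, edgeR adjusted p = 3.48e-07). OGN (osteoglycin) was lower as well, at -3.36 ± 0.62, -6.36 ± 0.64 and -5.61 ± 0.68 (log2 ± SE, edgeR adjusted p = 0.000431, 1.29e-06 and 5.84e-06), and without WT scrotum replicate 3 the scrotum value was -4.72 (edgeR adjusted p = 4.73e-06). PRELP, a proteoglycan next to basement membranes, was lower at the scrotum, at -2.40 ± 0.32 (SE, edgeR adjusted p = 1.27e-05). At the mouth it was -0.89 ± 0.30 (SE, edgeR adjusted p = 0.0207), a call lost without DIK mouth replicate 1 or 2 or WT mouth replicate 2, with edgeR adjusted p of 0.0534 to 0.0939. KERA (keratocan) had 0 counts in DIK at the mouth and 85 in WT, at least 19.8-fold lower in DIK against a floor of 3 counts over the group. With WT scrotum replicate 2 left out the count of lower genes at the scrotum was 8.

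Receptors for collagen gave 6 tested genes of the 8 in the table, with 1, 2 and 1 higher and 1, 2 and 1 lower at the nose, mouth and scrotum. DDR2, the receptor kinase for fibrillar collagen on mesenchymal cells, was lower at all labels, by 4.21-fold, 21.9-fold and 6.49-fold. Its levels at the mouth were 3.80, 4.37 and 2.67 CPM in DIK and 59.5, 96.2 and 84.5 CPM in WT, and the differences were -2.07 ± 0.40 (SE, edgeR adjusted p = 0.000492), -4.45 ± 0.42 (SE, edgeR adjusted p = 4.29e-07) and -2.70 ± 0.41 (SE, edgeR adjusted p = 3.72e-05). ITGA2, the alpha chain of a collagen-binding integrin of epithelia and platelets, was higher at the nose and mouth, at 2.75 ± 0.77 (SE, edgeR adjusted p = 0.0078) and 4.49 ± 0.63 (SE, edgeR adjusted p = 2.14e-05). The nose call was lost without WT nose replicate 3, at 2.80 (edgeR adjusted p = 0.0518), and without WT mouth replicate 2 the mouth value was 5.19 (edgeR adjusted p = 0.000106). ITGB1, its beta chain, was at 291, 192 and 227 CPM in DIK and 232, 586 and 719 CPM in WT at the mouth and 293, 368 and 295 CPM in DIK and 98.2, 55.8 and 141 CPM in WT at the scrotum. It was lower at the mouth, at -1.11 ± 0.41 (SE, edgeR adjusted p = 0.0339), and higher at the scrotum, at 1.69 ± 0.42 (SE, edgeR adjusted p = 0.0034). The mouth call was lost in the edgeR test without DIK mouth replicate 2 or 3 or WT mouth replicate 2 or 3, with edgeR adjusted p of 0.0923 to 0.169, and with the replicate block, at -1.02 (edgeR adjusted p = 0.0547). In the fit without WT mouth replicate 1 the count of lower receptors at the mouth was 4, and without WT mouth replicate 2 or 3 it was 1, as it was without DIK mouth replicate 2 or 3. The count of higher receptors was 1 at the mouth without WT mouth replicate 2 or 3, and 2 at the scrotum without WT scrotum replicate 2 or 3.

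Enzymes that break collagen down gave 7 tested genes of 8, with 3 higher and 2 lower at each label. MMP1, MMP9 and MMP13 were the higher ones, a collagenase, a gelatinase and a second collagenase. MMP9 was at 34.0, 117 and 32.5 CPM in DIK and 0, 0.365 and 0 CPM in WT at the nose, 292, 108 and 309 CPM in DIK and 0.322, 0.349 and 0.525 CPM in WT at the mouth and 262, 361 and 158 CPM in DIK and 0.420, 0.408 and 0 CPM in WT at the scrotum. The WT nose libraries held 1 count of MMP9 in all against 693 in DIK, a ratio of 479 with an exact 95% counting interval of 85.6 to 18931. The WT scrotum libraries held 3 counts against 2199, a ratio of 1036.5 with an interval of 354 to 5030.0. The fitted log2 difference at the nose was 8.55 ± 0.95 (SE, edgeR adjusted p = 2.85e-06), or 7.68 (edgeR adjusted p = 2.79e-06) without DIK nose replicate 2 and 7.51 (edgeR adjusted p = 0.000103) without WT nose replicate 3. Without WT nose replicate 2 the WT nose group has 0 counts of MMP9, and no fold is given. At the mouth the log2 difference was 9.14 ± 0.77 (SE, edgeR adjusted p = 2.5e-07).

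MMP2, a gelatinase of stromal cells, and CTSK, a lysosomal collagenase, were the lower ones at every label. MMP2 was at 32.9, 35.2 and 21.9 CPM in DIK and 429, 527 and 627 CPM in WT at the mouth, and its differences were -1.55 ± 0.44 (SE, edgeR adjusted p = 0.00853), -4.13 ± 0.48 (SE, edgeR adjusted p = 3.62e-06) and -4.55 ± 0.50 (SE, edgeR adjusted p = 1.21e-06). CTSK differed by -1.06 ± 0.37, -3.49 ± 0.39 and -2.67 ± 0.39 (log2 ± SE, edgeR adjusted p = 0.0272, 2.42e-06 and 2.47e-05). The nose call of CTSK was lost in the edgeR test without any 1 of the nose libraries other than WT replicate 1, with edgeR adjusted p of 0.0549 to 0.0923. Without WT scrotum replicate 3 the scrotum values were -3.80 (edgeR adjusted p = 1.27e-06) for MMP2 and -1.97 (edgeR adjusted p = 6.33e-05) for CTSK. DCN, OGN, DDR2, MMP2 and CTSK were each called lower at all 3 labels, where 6, 9 and 7 of the 9 tested fibroblast markers were lower. LUM, BGN and FMOD, of the same list as DCN and OGN, were not called at the nose or scrotum with all libraries in the fit. The part of fibroblasts in these values was not tested.

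**Figure D5:**
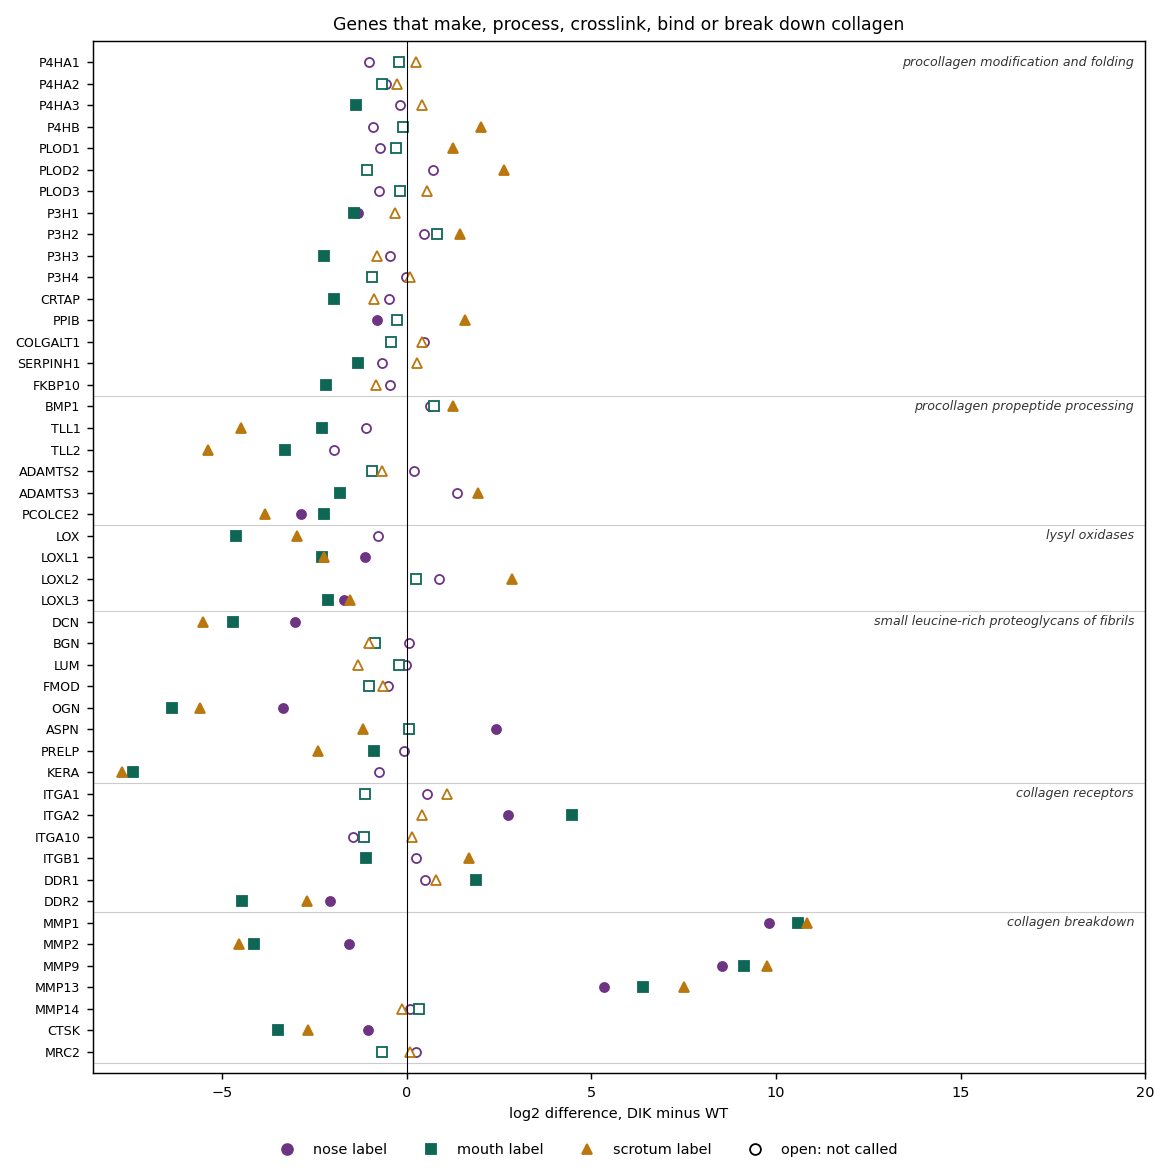
Log2 difference (DIK minus WT, horizontal axis) of the tested genes that make, process, crosslink, bind or break down collagen, by list, with circles for the nose, squares for the mouth and triangles for the scrotum label. Filled symbols passed an adjusted p of 0.05 in the edgeR test and open ones did not. MMP9 lies at the right and DCN, OGN, MMP2 and DDR2 at the left of 0 for all 3 labels, and KERA at the mouth and scrotum is a fitted value against 0 DIK counts.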

How the data were processed

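Total RNA was made into 18 libraries (3 for each of 6 groups) with a VAHTS mRNA-seq kit, per the labels' protocols, and the deposited table gives whole read counts per gene for each library. The authors' tools were fastp, HISAT2 2.1.0 and HTSeq 0.11.2, per the submitters' processing notes. For build, annotation and strand, the setting was not given in the sources used here. Reads of overlapping genes may therefore be shared. Groups were taken from the sample labels.

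Genes were kept with edgeR 4.0.16 filterByExpr (minimum count 10, minimum total 15), which left 12895 of 27339 genes and at least 99.1% of the counts of each library. Libraries were scaled by TMM. One quasi-likelihood fit over all 6 groups (R 4.3.3, robust glmQLFit and glmQLFTest) gave all contrasts, adjusted by Benjamini-Hochberg over the genes tested, and the common biological coefficient of variation was 36.1%. SEs were obtained as the absolute log2 difference over the root of F. The script was tested on simulated data. Alternatives were other scalings, other filters, DESeq2 1.42.0, limma 3.58.1 voom with quality weights, a replicate block, fits on only the groups compared, a stricter threshold and libraries left out. Intervals from counts cover counting error only. Every pair of libraries in a group differed by more than sampling noise (chi-square), so none was merged.

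The members, gene lists and tests were chosen with earlier results of these data known. Given with a value in every library were, in each class, the 3 members with the highest mean CPM, members called at all 3 labels in 1 direction or in opposite directions at different labels, and up to 5 with the smallest adjusted p in each interaction. Exceptions were the members below the filter, given by counts, COL23A1, given by range, and COL15A1, given by library at the mouth only. In each pathway list outside the collagens, up to 3 genes were named by the smallest adjusted p over the DIK to WT contrasts. Other members are given by range and counts, and any further gene named was chosen after its values were seen.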

Additional observations from a re-analysis of the deposited data

Results flagged for a closer look

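Values were singled out here where the difference between DIK and WT depended on the label by the interaction test (edgeR, adjusted over all 12895 genes tested). Of the 24 collagen genes, 7 did so in 9 values, namely 2 between mouth and nose, 1 between scrotum and nose and 6 between scrotum and mouth, where 8.60, 7.65 and 13.1% of all genes did. The first and the second of these counts are no larger a share than that of all genes. For COL4A2 the mouth difference minus the nose difference was -3.21 ± 0.51 (SE, edgeR adjusted p = 0.000578), and the scrotum difference minus the mouth difference was 3.38 ± 0.50 (SE, edgeR adjusted p = 0.000211). For COL4A5 these were -3.65 ± 0.70 (SE, edgeR adjusted p = 0.00275) and 2.84 ± 0.63 (SE, edgeR adjusted p = 0.0054). COL4A1 had 2.62 ± 0.58 (SE, edgeR adjusted p = 0.00564) between scrotum and mouth. These 5 type IV values passed the threshold under every alternative that was run.

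The other 4 values lost the threshold under some alternatives, as given with the interactions above. COL13A1 had 3.38 ± 0.82 (SE, edgeR adjusted p = 0.0174) between scrotum and nose. Between scrotum and mouth, COL12A1 had 1.20 ± 0.39 (SE, edgeR adjusted p = 0.0482), COL16A1 had 1.99 ± 0.55 (SE, edgeR adjusted p = 0.0217) and COL8A1 had 3.89 ± 1.12 (SE, edgeR adjusted p = 0.0272). COL8A1 rests on few reads, at 0.486 to 5.31 CPM in DIK and 0.204 to 7.68 CPM in WT.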

How the results depend on the processing

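Counts of called collagen genes were compared across the alternatives. The counts higher or lower in DIK at the mouth and scrotum, the count higher at the nose and the WT count between mouth and nose stayed within 1.5 times the reported count, and no called difference of a named gene changed direction. At an adjusted p under 0.01 the counts were 2 for genes lower at the nose (6 as reported), 0 for the interaction of scrotum and nose (1), 3 for that of scrotum and mouth (6), 0 for WT scrotum against nose (2), 5 for WT scrotum against mouth (8) and 0 for DIK scrotum against nose (5). With limma-voom and quality weights they were 12 for the interaction of mouth and nose (2), 2 for that of scrotum and nose, 10 for that of scrotum and mouth, 7 for WT scrotum against nose, 9 for DIK mouth against nose (0) and 13 for DIK scrotum against nose. With DESeq2 they were 2 for the interaction of scrotum and nose, 5 for WT scrotum against nose and 1 for DIK mouth against nose.

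With only the groups compared in the fit, 10 genes were lower at the nose, 6 differed in the interaction of mouth and nose, 0 in WT scrotum against nose, 4 in DIK mouth against nose, 10 in DIK scrotum against nose and 1 in DIK scrotum against mouth (0). WT scrotum against nose gave 1 gene with median-of-ratios scaling, 1 with library size alone and 5 with no filter. Without WT nose 1 and WT scrotum 2 it gave 7, and the interaction of scrotum and nose gave 2. Leaving out 1 library at a time gave 2 to 7 genes lower at the nose, 2 to 4 in the interaction of mouth and nose, 0 to 2 in that of scrotum and nose and 3 to 9 in that of scrotum and mouth. It gave 0 to 11 in WT scrotum against nose, 5 to 12 in WT scrotum against mouth, 0 to 1 in DIK mouth against nose and 0 to 5 in DIK scrotum against nose. The causes of these changes were not tested. Counts over all genes were made by setting for the DIK to WT differences alone, and not with 1 library left out. At the mouth limma-voom called 3821 genes higher and 3759 lower, against 2921 and 3133 by the main edgeR fit. The collagen counts given here without a share of all genes are therefore not read as results about collagens. The filter at 10 CPM in 3 libraries gives no value for the low genes it removes, and a fit limited to some libraries or groups gives none for comparisons outside them.

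Deviations of same-numbered DIK and WT libraries from their group means correlated between -0.048 and 0.089, and those of differently numbered libraries between -0.097 and 0.07. No pairing by replicate number was seen, and none was used in the main fit. With 3 libraries in a group this check is weak, and whether the numbers mark a shared batch was not tested. With the replicate block the count of genes lower at the nose was 7, that of genes lower at the scrotum 6 (7 as reported) and that of WT scrotum against nose 1. Depth limits the low genes most, above all in WT nose replicate 1, where 3 counts equal 5.76 CPM. All tumour libraries come from 1 animal, so the spread among them is not that between animals.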
